A study of Homo sapiens with 8 samples.

Results

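The comparison described here set DND41 cells that expressed sh1, one of a pair of short hairpin RNAs against SIRT1, beside DND41 cells that expressed a control hairpin. DND41 is an established human T-cell acute lymphoblastic leukaemia (T-ALL) line. The members were the 3 sh1 libraries (A, B and C) and the 2 control libraries (A and C), 5 of the 8 libraries of the series, and the 13885 of 18133 gene rows whose mean over the 8 libraries was at least 10 normalized counts. Cells of every group, controls included, received doxycycline for 72 h, which switches the hairpin on, so that the control cells made a hairpin as well. Total RNA was extracted from the cells, and the labels name no genotype other than the hairpin. The 3 libraries of the other SIRT1 hairpin, sh3, entered the same model for the estimate of spread, and their values are given where they show how a gene behaved under a separate hairpin. For library C of sh3 the title and the genotype field give a SIRT1 hairpin and the description field gives the control one; it was kept with sh3, as titled. The labels speak of plating in triplicate and of no separate infections or clones, so p-values here measure only how much these cultures vary, and that variation may be technical. With 1 hairpin sequence, an effect of lower SIRT1 and an effect of that sequence on other transcripts cannot be told apart.

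SIRT1 is an NAD-dependent deacetylase of the nucleus that removes acetyl groups from histones and from transcription factors such as the FOXO proteins. Because it consumes NAD and yields nicotinamide, its activity is tied to the energy state of the cell, and it is known for roles in metabolism, in stress responses and in the circadian clock. In T-ALL, a leukaemia of immature T cells that is often driven by NOTCH1, it is one of the deacetylases studied for their part in the growth of the cells.

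The libraries had several marks of a T-ALL line. RAG1, the recombinase of immature lymphocytes, stood at 60598 and 57887 normalized counts in controls A and C and at 67237, 67137 and 63514 in sh1 A, B and C. CD3E, a chain of the T cell receptor complex, stood at 24188 and 26148 in the controls and 20041, 21688 and 21589 with sh1. TLX3, a homeobox factor of one T-ALL class, stood at 7428 and 7498 in the controls and 7892, 7806 and 7969.7 with sh1. Of the 22 defining markers listed, 19 had a row, and some of these were scarce. In controls A and C, TAL1 stood at 6.19 and 3.06, DNTT at 65.7 and 58.3 and CD2 at 56.2 and 63.1. Of 18 tested markers that define T-ALL cells, 6 fell and none rose (limma; 1 higher at an unadjusted p under 0.05), 33.3% called at limma's adjusted p under 0.05 beside 6.31% of all genes tested, with a median of -0.10. The 8 libraries summed to between 33087819.7 and 34072666.3 normalized counts, the top 10 genes held 4.54 to 4.96% of each sum, and mitochondrially encoded genes 2.71 to 3.07%. Spearman's rank correlation across genes was 0.99503 to 0.99598 between sh1 libraries, 0.99569 between the controls, and 0.99251 to 0.99391 between an sh1 and a control library.

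SIRT1 itself fell by 29.1% from its mean in the controls. It measured 1745 and 1919.5 normalized counts in controls A and C and 1259, 1312 and 1328 in sh1 A, B and C, so that every sh1 library lay below both controls. The log2 change was -0.49 ± 0.070 (SE), with limma's adjusted p = 0.0029; without control C it was -0.43 and the adjusted p was 0.0506. With sh3 the gene measured 1099, 1217 and 1179 (log2 change -0.65), and the difference between the hairpins, 0.16 ± 0.063, did not pass the test (adjusted p = 0.14).

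Across all genes tested, 876 (6.31%) passed the test at an adjusted p under 0.05, and these are called below: 400 rose (2.88%) and 476 fell (3.43%). The changes were small, with a median of 0.29 on the log2 scale among the rises and -0.40 among the falls, and 88 reached a size of 1, of which 20 rose and 68 fell. In all 876 the 3 sh1 values lay beyond both controls on the same side, which held for 38.2% of all genes tested (19.3% above, 18.9% below). The share called climbed with the level of the gene, from 1.17% at means of 10 to 50 normalized counts to 13.2% at 5000 and more, as the median standard error of a log2 change fell from 0.396 to 0.053. The plot of change against level shows falls larger than the rises among genes of low and middle level. How many genes are called depends on single libraries: 159 were called without control C, 351 without control A and 377 without sh1 B. Below, a call is given as lost or ended when it did not pass with a single library left out, with limma's adjusted p without that library; when that library is a control, the remaining one is assumed to vary like the other groups.

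**Figure D1:**
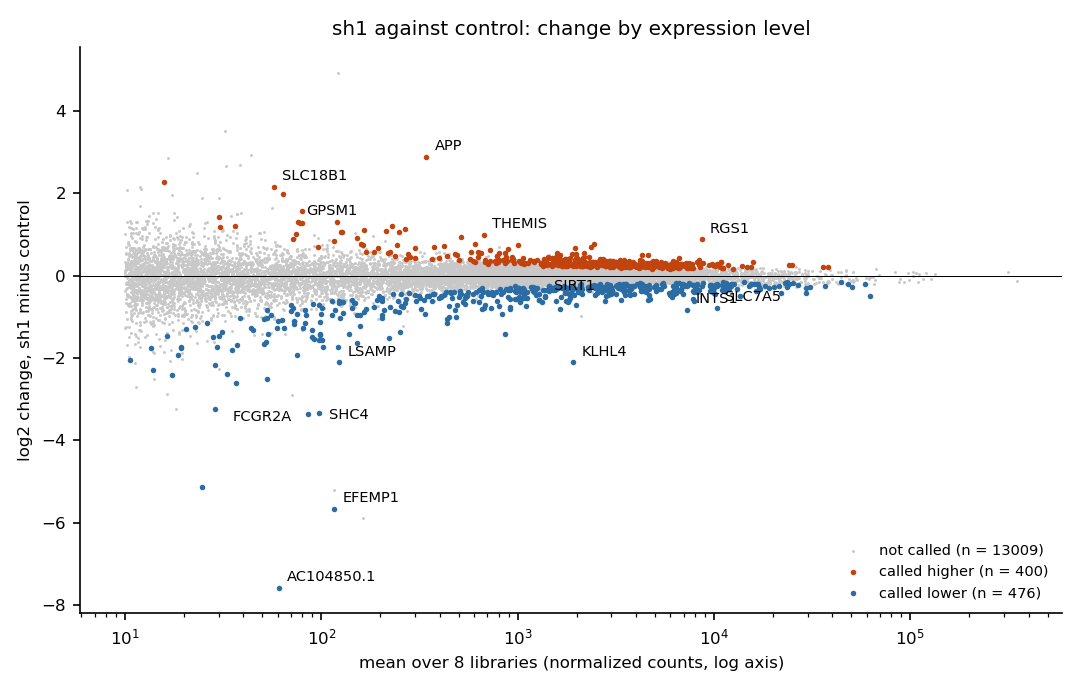
Each point is 1 of the 13885 genes tested, with its mean over the 8 libraries in normalized counts on a log axis and its log2 change of sh1 minus control; orange marks the 400 genes called higher, blue the 476 called lower, grey the rest. APP stands highest among the named genes at 2.88, KLHL4 lies at -2.10, and most called genes lie close to 0.

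Genes that nearly vanished with sh1 headed the falls. Over the called genes that averaged 50 normalized counts or more, the 12 largest falls ran from -7.58 to -1.64 on the log2 scale, where the size of the first depends on the added 1. AC104850.1, a processed pseudogene, measured 210.4 and 268 in controls A and C and 0, 0 and 0.954 in sh1 A, B and C, and EFEMP1, an extracellular matrix glycoprotein, 406 and 478 in the controls and 10.8, 12.5 and 3.20 with sh1. Both genes were present in the controls and near 0 in every sh1 library (EFEMP1 log2 change -5.66 ± 0.55, adjusted p = 2.4e-04). FCGR2A, an activating receptor for immunoglobulin G, went from 274 and 256 to 27.3, 25.5 and 21.7 (-3.37 ± 0.32, adjusted p = 2.3e-04). SHC4, a signalling adaptor of the Shc family, went from 290.0 and 286 to 26.6, 29.1 and 27.4 (-3.33 ± 0.23, adjusted p = 4.2e-05). These 4 genes were also far below the controls with sh3, where their log2 changes were -6.17, -5.84, -3.35 and -2.90, and no difference between the hairpins passed the test for them (adjusted p = 0.11, 0.86, 0.98 and 0.20). FCGR2A has close relatives with which it may share reads, and SHC4 overlaps EID1 in the annotation. The libraries kept the strand; that the counting used it is not stated, here and for the other overlaps named below.

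KLHL4, a kelch protein with a BTB domain, gave the smallest p of all genes tested. Its level was 2818 and 2826 normalized counts in controls A and C and 686, 650.4 and 636 in sh1 A, B and C. The sh1 libraries lay close together and 4.29-fold below the controls, a log2 change of -2.10 ± 0.063 with an adjusted p of 1.4e-08. With sh3 it measured 2650.1, 2639 and 2460.0, a log2 change of -0.13 (adjusted p = 0.18), and the sh1 level differed from the sh3 level by -1.97 ± 0.056 (adjusted p = 4.1e-09). Of the 31 genes of BTB-kelch proteins and cullin 3 that were tested, KLHL4 alone was called, 3.23% beside 6.31% of all genes. The median log2 change of the list was 0.025 beside -0.00044 over all genes tested.

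The other large falls were in genes of several kinds. LSAMP, a neural adhesion molecule, fell, at a log2 change of -2.09 ± 0.20. CYBB, the catalytic subunit of the phagocyte NADPH oxidase (-1.92 ± 0.25), and TNFSF8, a ligand of the tumour necrosis factor family (-1.74 ± 0.19), fell as well. CD244, a receptor of the SLAM family on natural killer and T cells, measured 348 and 339 in the controls and 91.5, 118 and 122 with sh1 (-1.64 ± 0.16, adjusted p = 2.7e-04). In these 4 genes all sh1 values were below both controls, and their adjusted p ran from 2.4e-04 to 0.0015. RAB37, a small GTPase of secretory vesicles, changed by -1.73 (adjusted p = 0.0051). MUC1, a membrane mucin, went from 101 and 46.8 to 26.1, 19.4 and 18.7 (-1.65 ± 0.38, adjusted p = 0.029). NCKAP1, a subunit of the WAVE actin-regulating complex, went from 34.6 and 276 to 20.3, 17.4 and 12.8 (-2.50 ± 0.67, adjusted p = 0.049). For NCKAP1 the controls were themselves far apart. Calls ended without control C for NCKAP1 (adjusted p 0.37) and without control A for MUC1 (0.20). For the other libraries, calls ended without sh1 A for NCKAP1 (adjusted p 0.070), without sh1 B for NCKAP1 and MUC1 (0.076 to 0.10), without sh1 C for NCKAP1 and MUC1 (0.063 to 0.099) and without sh3 C for NCKAP1 (0.065), at log2 changes of -2.64 to -1.02. TNFSF8 overlaps DEC1, RAB37 overlaps CD300LF, MUC1 overlaps AL713999.1 and CYBB overlaps AF241726.2.

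APP, the amyloid precursor protein, rose most. It measured 110.0 and 103 normalized counts in controls A and C and 736, 848 and 799 in sh1 A, B and C. All sh1 libraries stood far above both controls, 7.38-fold on average (log2 change 2.88 ± 0.22, adjusted p = 8.0e-05). With sh3 it lay below the controls at 40.9, 37.1 and 68.9 (-1.16, adjusted p = 0.0048), which put the hairpins 4.04 ± 0.20 apart (adjusted p = 5.1e-07). Of 21 tested genes that cut or bind APP, APP included, only APP rose. ITM2C (-0.24, limma's adjusted p = 0.030) and SORL1 (-0.37, adjusted p = 0.044) fell. That was 14.3% called beside 6.31% of all genes, with a median of -0.062. ITM2C is a BRICHOS-domain protein that binds APP, and SORL1 is its sorting receptor. Their calls ended without control C for ITM2C and SORL1 (adjusted p 0.11 to 0.13) and without control A for ITM2C and SORL1 (0.14 to 0.23). In the SIRT1 arm calls ended without sh1 A for ITM2C (adjusted p 0.052), without sh1 B for SORL1 (0.12) and without sh1 C for ITM2C and SORL1 (0.069 to 0.096).

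The other large rises were mostly in genes of low level. SLC18B1, a vesicular polyamine transporter, went from 29.8 and 21.3 normalized counts in the controls to 110.0, 129.8 and 109 with sh1 (2.16 ± 0.29, adjusted p = 0.0022). CASKIN1, a scaffold that binds the kinase CASK, went from 19.8 and 36.5 to 122, 104 and 104 (1.99 ± 0.32, adjusted p = 0.0059), and GPSM1, a modulator of G protein signalling, from 55.5 and 57.2 to 140.5, 141 and 141 (1.31 ± 0.20, adjusted p = 0.0042). In all 3 genes the groups did not overlap, and sh1 lay above sh3 as well, by 2.55 ± 0.26, 1.42 ± 0.29 and 2.48 ± 0.18 (adjusted p = 1.1e-04, 0.0085 and 1.1e-05). CABLES1, which links cyclin-dependent kinases to other kinases, rose by 1.31 ± 0.27, and MYO5C, an unconventional myosin, by 1.11 ± 0.21; both also differed from sh3 (adjusted p = 0.011 and 0.0016). CD248, also called endosialin, rose by 1.57, DUSP16, a phosphatase of MAP kinases, by 1.21, EMP3, a small membrane protein, by 1.12, LZTS3 by 1.07, RAPH1, an adaptor of actin assembly, by 1.27 and the pseudogene SOD1P3 by 1.28. SOD1P3 resembles its parent gene SOD1, so that its count is uncertain. The adjusted p of the 12 rises ran from 8.0e-05 to 0.0495, and calls were lost without control C for CD248, CABLES1, SOD1P3, RAPH1 and MYO5C (adjusted p 0.071 to 0.22) and without control A for CABLES1, RAPH1 and MYO5C (0.070 to 0.15). Among the hairpin libraries, losses came without sh1 B for RAPH1 (adjusted p 0.072) and without sh3 C for RAPH1 (0.072), at 0.84 to 1.39 on the log2 scale. CASKIN1 overlaps TRAF7, EMP3 overlaps CCDC114, GPSM1 overlaps DNLZ, CABLES1 overlaps TMEM241 and RAPH1 overlaps ABI2.

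**Figure D2:**
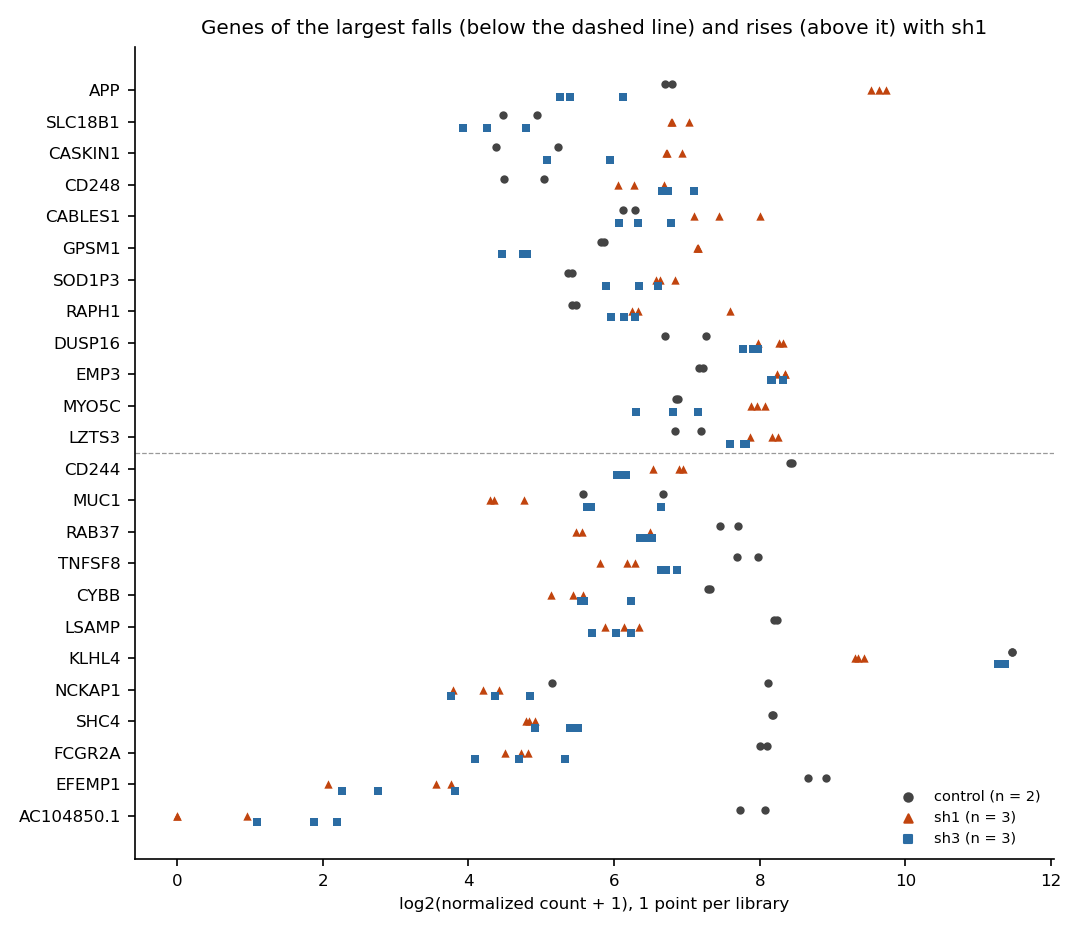
Each point is 1 library on the log2(normalized count + 1) scale, for the 12 largest rises (above the dashed line) and the 12 largest falls (below it) of sh1 against control; circles are the 2 controls, triangles the 3 sh1 and squares the 3 sh3 libraries. The sh1 points lie beyond both controls in every gene, as the choice of these genes required. The sh3 points lie beside the controls for KLHL4 and on their far side for APP and GPSM1.

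Many carriers that bring amino acids into the cell fell. Of 19 amino acid transporters tested, 8 fell and 1 rose, 47.4% called beside 6.31% of all genes, with a median of -0.21; 17 of the 19 lay below 0. SLC7A5, which carries large neutral amino acids such as leucine, measured 14174 and 14894 normalized counts in controls A and C and 9228, 8382 and 7888 in sh1 A, B and C (-0.78 ± 0.074, adjusted p = 2.3e-04). Its partner chain SLC3A2 went from 8384 and 8974 to 6245, 6280.1 and 6526 (-0.45 ± 0.048, adjusted p = 4.4e-04), and the glutamine carrier SLC1A5 from 9864 and 10483 to 6701, 6508 and 6614 (-0.62 ± 0.054, adjusted p = 1.6e-04). The sh1 libraries were below both controls in each. Falls were also found in SLC38A1, another glutamine carrier (-0.60), SLC1A4, a carrier of neutral amino acids such as alanine and serine (-0.44), SLC7A11, the cystine-glutamate exchanger (-0.79), SLC7A6 (-0.29) and SLC6A9, a glycine carrier (-0.77), with adjusted p from 5.2e-04 to 0.049. SLC36A4 rose by 0.25 (adjusted p = 0.044).

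Some enzymes of serine, asparagine, proline and one-carbon metabolism fell. Of 21 tested, 5 fell and none rose (limma; 1 at an unadjusted p under 0.05), 23.8% called beside 6.31% of all genes, with a median of -0.10. PHGDH, which opens the serine pathway, went from 11848 and 12333 to 8835, 9175 and 8578 (-0.45 ± 0.048, adjusted p = 4.7e-04). GLUL, glutamine synthetase, went from 9529 and 9099.7 to 6511, 6397 and 6072 (-0.56 ± 0.056, adjusted p = 2.7e-04). Both stood below the controls in all 3 sh1 libraries. SHMT2, which moves the serine carbon to folate in mitochondria (-0.37), PSPH, the last enzyme of serine synthesis (-0.53), and BCAT1, a branched-chain aminotransferase (-0.41), fell as well (adjusted p = 9.6e-04, 0.0059 and 0.013). ASNS, asparagine synthetase, is in the same list, and its log2 change of -0.065 ± 0.13 did not pass the test (adjusted p = 0.81). SHMT2 overlaps NDUFA4L2, and SLC1A5 overlaps another gene in the annotation. Among the transporter and enzyme calls of SLC7A5, SLC3A2, SLC1A5, SLC38A1, SLC1A4, SLC7A11, SLC7A6, SLC6A9, SLC36A4, PHGDH, SHMT2, GLUL, PSPH and BCAT1, losses occurred without control C for SLC7A11, SLC7A6, SLC6A9, SLC36A4, PSPH and BCAT1 (adjusted p 0.056 to 0.38) and without control A for SLC7A6, SLC36A4 and BCAT1 (0.064 to 0.11). For the other libraries, calls ended without sh1 A for SLC6A9 and SLC36A4 (adjusted p 0.058 to 0.088), without sh1 B for SLC7A6, SLC6A9 and SLC36A4 (0.068 to 0.13), without sh1 C for SLC6A9 (0.10) and without sh3 C for SLC6A9 and SLC36A4 (0.052 to 0.055).

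Cytosolic aminoacyl-tRNA synthetases, which load amino acids onto their tRNAs, were among the small falls. Of 20 tested, 8 fell and none rose (0 higher at limma's unadjusted p under 0.05). That was 40.0% called, beside 6.31% of all genes and 13.2% of those at means of 5000 and more, where GARS and LARS lie. The median was -0.15, and 17 lay below 0. GARS, for glycine, measured 11255 and 12272 in the controls and 8616, 8630.2 and 9128 with sh1 (-0.42 ± 0.051, adjusted p = 9.7e-04). LARS, for leucine, measured 10751 and 10865 in the controls and 8830.4, 9280.3 and 8082 with sh1 (-0.31 ± 0.056, adjusted p = 0.010). All sh1 values were the lower ones. The remaining falls were MARS (-0.30), WARS (-0.35), IARS (-0.21), NARS (-0.25), SARS (-0.20) and CARS (-0.21), with adjusted p from 0.0077 to 0.029; MARS overlaps DDIT3. For 9 of the 20, beside 11.4% of all genes tested, the sh1 level differed from the sh3 level, among them LARS (-0.31 ± 0.050, adjusted p = 0.0023), whose sh3 change was -0.0025. Losses of calls occurred without control C for all but GARS (adjusted p 0.074 to 0.21) and without control A for all but GARS, MARS and WARS (0.0501 to 0.13). In the SIRT1 arm calls ended without sh1 A for CARS (adjusted p 0.053), without sh1 B for IARS, SARS and CARS (0.058 to 0.064) and without sh1 C for NARS and CARS (0.055 to 0.057).

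ATF4, the transcription factor that drives many of these genes when amino acids are short, was itself slightly lower: it measured 29150.0 and 31348 normalized counts in controls A and C and 24628, 25934 and 27005 in sh1 A, B and C (-0.23 ± 0.052, adjusted p = 0.028). Of 28 genes of the ATF4 and endoplasmic reticulum stress response, 10 fell and none rose (1 higher at limma's unadjusted p under 0.05). That was 35.7% called beside 6.31% of all genes, with a median of -0.16. TRIB3, a pseudokinase that feeds back on ATF4, went from 3702 and 3959.8 to 2549.8, 2552 and 2553 (-0.59 ± 0.054, adjusted p = 2.0e-04), with sh1 libraries that hardly differed among themselves. CHAC1, a glutathione-degrading enzyme, went from 123 and 193 to 53.9, 45.9 and 62.9 (-1.50 ± 0.23, adjusted p = 0.0044), and SESN2, a leucine sensor upstream of mTORC1, from 896 and 1029 to 563, 529.8 and 538 (-0.82 ± 0.10, adjusted p = 0.0010). The controls of CHAC1 differed from each other by more than its sh1 libraries did. Further falls were CEBPB (-0.38), VLDLR (-0.36), HERPUD1 (-0.35), SDF2L1 (-0.25), HSPA5 (-0.24) and XBP1 (-0.20), with adjusted p from 0.0020 to 0.036. DDIT3, which encodes the stress factor CHOP, measured 703 and 699 in the controls and 675, 705 and 745 with sh1, a change of 0.014 ± 0.081 that did not pass the test (adjusted p = 0.95). Of these calls, some were lost without control C for all but TRIB3, SESN2 and CEBPB (adjusted p 0.052 to 0.24) and without control A for SDF2L1 (0.14). Among the hairpin libraries, losses came without sh1 B for ATF4, XBP1, HSPA5 and SDF2L1 (adjusted p 0.078 to 0.12) and without sh1 C for HSPA5 and SDF2L1 (0.055 to 0.069), at log2 changes of -1.18 to -0.15.

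With sh3, 9 of these 28 genes were called higher and 5 lower, beside 18.6% of all genes called with sh3 in either direction, with a median of 0.062, and 13 of the 28 differed between sh1 and sh3, beside 11.4% of all genes. TRIB3 measured 3723, 3908 and 4035 with sh3 and the difference was -0.61 ± 0.048 (adjusted p = 2.0e-05), and HSPA5, the main chaperone of the endoplasmic reticulum, was lower with sh1 and higher with sh3 (-0.24 and 0.20, difference -0.43 ± 0.049, adjusted p = 2.1e-04). CHAC1 and SESN2 did not differ between the hairpins beyond the test (-0.53 ± 0.21 and -0.082 ± 0.090, adjusted p = 0.13 and 0.63).

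**Figure D3:**
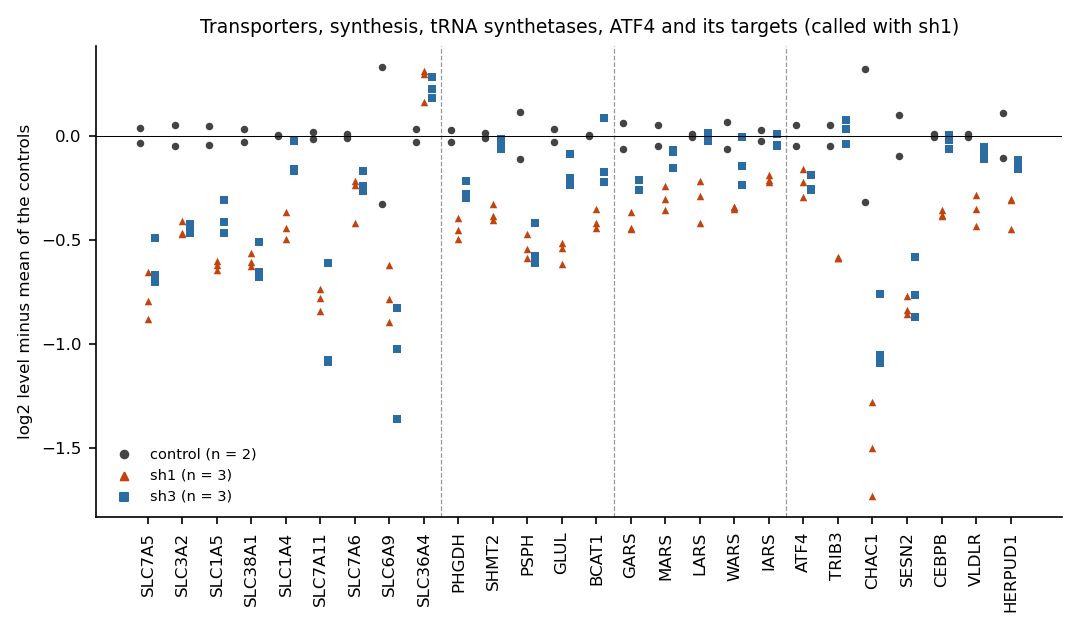
Each point is 1 library, as its log2(normalized count + 1) minus the mean of the 2 controls, for the 9 called transporters, then called synthesis enzymes, 5 of the 8 called tRNA synthetases, and ATF4 with 6 of the called genes of its list, in that order between the dashed lines; circles are controls, triangles sh1 and squares sh3. The sh1 triangles lie above 0 for SLC36A4 and below 0 for every other gene drawn, while the sh3 squares lie near 0 for TRIB3, CEBPB, LARS and SHMT2.

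Some promoters of these groups hold a short element. The amino acid response element, searched here as TGATGNAA on both strands in the 250 bases before and 50 bases after each start in the RefSeq promoter table (GRCh38.p14), is a sequence that ATF4 with a C/EBP partner can bind. It was found in 3.62% of all 35093 promoters, in 2.09% of those of genes tested, in 3.42% of those of genes called lower and in 0.848% of those of genes called higher. Its share was 6 of 21 promoters for the serine and one-carbon enzymes, 5 of 15 for the tRNA synthetases, 5 of 34 for the amino acid transporters and 4 of 40 for the ATF4 and endoplasmic reticulum list. These promoters belonged to 12, 12, 18 and 27 genes of the lists, in that order. Some genes had several promoters and others had none. Among promoters of the called members alone the element was in 1 of 8, 3 of 6, 4 of 15 and 2 of 15, in the same order. Those came from 3, 4, 8 and 10 called genes. The E-box, searched as CACGTG, was in 9.27% of the promoters of genes tested and, in that order, in 6 of 21, 1 of 15, 7 of 34 and 6 of 40. A match is a run of letters and not a measured binding site. For 5 genes that fell with sh1, the stretch that holds the match is printed in the direction of transcription up to at most the start site, with the element in capitals:
CHAC1: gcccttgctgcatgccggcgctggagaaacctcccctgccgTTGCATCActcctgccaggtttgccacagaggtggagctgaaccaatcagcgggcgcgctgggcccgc
SLC1A5: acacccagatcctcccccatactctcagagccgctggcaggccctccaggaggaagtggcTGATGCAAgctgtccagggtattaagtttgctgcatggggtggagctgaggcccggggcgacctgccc
IARS: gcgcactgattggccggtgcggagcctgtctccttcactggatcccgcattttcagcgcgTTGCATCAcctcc
BCAT1: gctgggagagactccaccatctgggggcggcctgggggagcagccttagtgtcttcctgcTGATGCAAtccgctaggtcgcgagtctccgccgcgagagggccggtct
HERPUD1: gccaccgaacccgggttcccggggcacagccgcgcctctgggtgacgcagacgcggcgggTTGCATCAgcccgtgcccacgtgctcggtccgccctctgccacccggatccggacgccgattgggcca
These stretches lie at chr15:40953221-40953329, plus strand, at chr19:46784844-46784971, minus strand, at chr9:92293698-92293770, minus strand, at chr12:24949102-24949209, minus strand, and at chr16:56931906-56932033, plus strand. The element reads TGATGCAA in SLC1A5 and BCAT1 and is on the opposite strand, as TTGCATCA, in CHAC1, IARS and HERPUD1; it begins 209, 97, 13, 48 and 176 bases before the start site in the order printed. The SLC1A5 match belongs to one of several annotated starts of that gene.

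Genes of cholesterol and fatty acid synthesis were among the falls. Of 27 genes of cholesterol synthesis and uptake, 10 fell and none rose (limma; 0 at an unadjusted p under 0.05), 37.0% called, with a median of -0.19 and 26 of 27 below 0. HMGCS1, the synthase that acts early in cholesterol synthesis, measured 5419.9 and 5562 normalized counts in controls A and C and 4092, 4192 and 4324 in sh1 A, B and C (-0.39 ± 0.058, adjusted p = 0.0038). Its groups did not overlap. Further falls, in the order of the pathway, were FDFT1 (-0.35), SQLE (-0.27), LSS (-0.45), MSMO1 (-0.28), SC5D (-0.35) and DHCR7 (-0.56), with adjusted p from 0.0040 to 0.029. Of 21 genes of fatty acid synthesis and desaturation, 5 fell and 1 rose, 28.6% called beside 6.31% of all genes, with a median of -0.10. SREBF1, the transcription factor of lipid synthesis, went from 2855 and 2529.5 to 1611, 1711 and 1600.5 (-0.71 ± 0.080, adjusted p = 6.1e-04). SCD, which desaturates stearate, went from 17177 and 17539 to 12570.0, 12413 and 11988 (-0.49 ± 0.048, adjusted p = 2.4e-04). FADS2 (-0.40), FASN, the fatty acid synthase (-0.40), and ACSL3 (-0.30) fell and ACSS2, which makes acetyl-CoA from acetate, rose (0.39). SREBF2, the factor paired with the cholesterol genes, had a change of -0.11 ± 0.060 and did not pass the test (adjusted p = 0.30). Calls were lost without control C for all but SREBF1, SCD and FADS2 (adjusted p 0.051 to 0.19) and without control A for all but HMGCS1, SREBF1, SCD and DHCR7 (0.061 to 0.23). For the other libraries, calls ended without sh1 A for ACSL3, ACSS2 and MSMO1 (adjusted p 0.055 to 0.081), without sh1 B for FASN, ACSS2, SQLE, LSS and MSMO1 (0.057 to 0.12), without sh1 C for ACSL3 and ACSS2 (0.076 to 0.085) and without sh3 C for ACSS2 (0.064). FADS2 overlaps FADS1 and SREBF1 overlaps RAI1. The sterol response element, searched as TCACNCCAC on both strands, was in 1.13% of all promoters. In the cholesterol list it was in 1 of 27 promoters, which belonged to 21 genes. Among the called members of that list it was in 0 of 8 promoters, from 5 genes.

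Some chains and kinases of the T cell receptor were among the falls. Of 34 genes of the receptor and of thymocyte identity, 8 fell and 1 rose, 26.5% called beside 6.31% of all genes, and 13 lay above 0, with a median of -0.10. LCK, the kinase that first acts on the receptor, measured 5361 and 5211 normalized counts in the controls and 4149.6, 3933 and 3962 with sh1 (-0.40 ± 0.047, adjusted p = 8.7e-04). Its relative FYN measured 6996 and 7282 in the controls and 5307, 5326 and 4740.1 with sh1 (-0.48 ± 0.069, adjusted p = 0.0029). Both kinases were below the controls in each sh1 library. The receptor chains CD3D (-0.32), CD3E (-0.25) and CD247 (-0.27) fell, as did CD7 (-0.37), a marker of early T cells, CD1A (-0.68), a lipid-presenting molecule of cortical thymocytes, and CD2 (-1.36), at adjusted p from 0.0054 to 0.021. THEMIS, an adaptor needed for thymocyte selection, rose from 519 and 474 to 968, 1110.1 and 897 (0.99 ± 0.10, adjusted p = 4.4e-04); with sh3 it measured 460.4, 515 and 451, and the difference between the hairpins was 1.06 ± 0.094 (adjusted p = 4.0e-05). The chain CD3G measured 8331 and 8209.5 in the controls and 8794, 8612 and 8187 with sh1 (0.044 ± 0.050, adjusted p = 0.65). The kinase ZAP70 measured 8570.3 and 8549.8 in the controls and 8015, 7965 and 7307 with sh1 (-0.14 ± 0.049, adjusted p = 0.12). Neither passed the test. For 17 of the 34 genes sh1 and sh3 differed, beside 11.4% of all genes tested. In CD7 and CD1A the sh3 level was the lower one (0.48 ± 0.056 and 0.65 ± 0.097 for sh1 minus sh3, adjusted p = 2.4e-04 and 0.0013). Calls ended without control C for all but LCK, FYN and THEMIS (adjusted p 0.076 to 0.16), without control A for CD2 (0.086) and without sh1 B for CD2 (0.057).

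Of 21 NOTCH1 targets tested, 2 rose and 3 fell, 23.8% called beside 6.31% of all genes, with a median of -0.060, or 0.037 with no filter on low values. With sh3 the list had 4 genes called higher and 11 lower (18.6% of all genes called) and a median of -0.34. 12 of the 21 differed between the hairpins, beside 11.4% of all genes. RUNX3, a transcription factor of the T cell lineage, went from 629 and 454 normalized counts in the controls to 994, 836 and 899 with sh1 (0.76 ± 0.16, adjusted p = 0.021). CCND3, a D-type cyclin, went from 31599 and 32356 to 36606, 37375 and 36832 (0.21 ± 0.041, adjusted p = 0.016). GIMAP5 (-0.45), a lymphocyte GTPase, DTX1 (-0.25), a ubiquitin ligase of the pathway, and MYC (-0.34) fell, at adjusted p from 0.017 to 0.033. NOTCH1 itself measured 10751 and 10283 in the controls and 11358, 9983 and 9049.7 with sh1 (-0.060 ± 0.084, adjusted p = 0.73). HES1, a direct target, measured 2203 and 2402 in the controls and 2382, 2403 and 2705 with sh1 (0.12 ± 0.080, adjusted p = 0.44). Neither passed the test. In the list of MYC and ribosome biogenesis 3 of 42 fell and none rose (2 higher at limma's unadjusted p under 0.05). That was 7.14% called beside 6.31% of all genes, with a median of -0.068. The falls were MYC, LDHA, lactate dehydrogenase (-0.27, limma's adjusted p = 0.011), and TFRC, the transferrin receptor (-0.25, adjusted p = 0.031). Of 17 T-ALL transcription factors ZEB1 alone was called (0.22, adjusted p = 0.032), and TLX3 had a change of 0.080 ± 0.049 (adjusted p = 0.37). Losses of calls occurred without control C for all 8 (adjusted p 0.074 to 0.28) and without control A for CCND3, ZEB1, LDHA and TFRC (0.062 to 0.12). Among the hairpin libraries, losses came without sh1 A for RUNX3 and ZEB1 (adjusted p 0.051 to 0.061), without sh1 B for all but RUNX3 and LDHA (0.057 to 0.10) and without sh1 C for DTX1 and TFRC (0.056 to 0.058).

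A set of mitotic genes rose by small amounts. Of 36 tested, 12 rose and none fell (limma; 0 at an unadjusted p under 0.05), 33.3% called, with a median of 0.14 and 32 above 0. TTK, a kinase of the spindle checkpoint, measured 4165 and 3801 normalized counts in controls A and C and 5102, 4954 and 4876 in sh1 A, B and C (0.32 ± 0.052, adjusted p = 0.0057), and NCAPG, a condensin subunit, 7474 and 6624 in the controls and 8984, 8749 and 8835 with sh1 (0.33 ± 0.062, adjusted p = 0.012). The sh1 values were above both controls in these and all other called genes of the list, which were CKAP2 (0.28), PRC1 (0.33), NDC80 (0.25), NUSAP1 (0.25), AURKB (0.20), SMC4 (0.26), KIF2C (0.19), KIF11 (0.18), ECT2 (0.26) and CDCA8 (0.18), at adjusted p from 0.0063 to 0.042. Of 39 genes of DNA replication 6 rose and none fell (0 lower at limma's unadjusted p under 0.05). That was 15.4% called beside 6.31% of all genes, with a median of 0.046. The rises were the E2F repressors E2F8 (0.43) and E2F7 (0.45), the ribonucleotide reductase subunit RRM2 (0.24), the origin recognition subunits ORC6 (0.28) and ORC1 (0.23), and the replication kinase CDC7 (0.28). Of 17 G1 cyclins and inhibitors 35.3% were called. CDKN1B, an inhibitor of cyclin-dependent kinases (0.25), CDK2 (0.22), CCND3 (given above) and CABLES1 made up the 4 rises. CDK6 (-0.25) and CCND2 (-1.77), both partners in G1, fell. CCND2 was scarce, at 32.6 and 17.2 in the controls and 6.66, 7.29 and 5.04 with sh1. Of the 22 calls named here, none held through all the omissions: they were lost without control C for all but RRM2 and CDK6 (adjusted p 0.051 to 0.35) and without control A for PRC1, NDC80, NUSAP1, AURKB, SMC4, KIF2C, KIF11, CDCA8, RRM2, CDC7, ORC1, CDKN1B, CDK6, CCND2 and CDK2 (0.051 to 0.21). For the other libraries, calls ended without sh1 A for KIF11, ECT2, ORC1, E2F7 and CCND2 (adjusted p 0.052 to 0.081), without sh1 B for all but TTK, CKAP2, NCAPG, NDC80, E2F8 and RRM2 (0.057 to 0.13), without sh1 C for AURKB, ECT2, CDCA8, ORC1 and CCND2 (0.0501 to 0.086) and without sh3 C for E2F7 (0.061), at log2 changes of -2.21 to 0.45.

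Few genes of the ribosome and of mitochondrial respiration were called. Of 56 cytosolic ribosomal proteins, 4 fell and none rose (0 higher at limma's unadjusted p under 0.05). That was 7.14% called, beside 6.31% of all genes and 13.2% of those at means of 5000 and more, where RPS2, RPL28 and RPL6 lie. Yet 55 of the 56 lay below 0, and the median was -0.18. The called ones were RPS2 (-0.29), RPL28 (-0.28), RPL6 (-0.30) and RPL7 (-0.21), at adjusted p from 0.017 to 0.042, and all have many pseudogenes that can share their reads. Of 36 nuclear genes of oxidative phosphorylation SDHA alone was called (0.22, adjusted p = 0.028), and of 13 mitochondrially encoded ones none was (limma; 3 at an unadjusted p under 0.05), the median being -0.0033, or 0.031 with quantile normalization. HSPE1, the mitochondrial co-chaperonin, was the only call among 22 chaperones (-0.32, adjusted p = 0.049). These calls were lost without control C for all 6 (adjusted p 0.16 to 0.32) and without control A for RPL7, SDHA and HSPE1 (0.052 to 0.12). In the SIRT1 arm calls ended without sh1 A for RPL7 and HSPE1 (adjusted p 0.060 to 0.066), without sh1 B for all but RPS2 (0.052 to 0.082), without sh1 C for RPL7 (0.064) and without sh3 C for HSPE1 (0.070).

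Some antioxidant genes fell. Of 30 genes of glutathione metabolism and the NRF2 response, 7 fell and none rose (1 higher at limma's unadjusted p under 0.05). That was 23.3% called beside 6.31% of all genes, with a median of -0.11. Beside SLC7A11 and CHAC1 they included PRDX1, a peroxiredoxin (-0.37), PGD (-0.24), which makes NADPH in the pentose phosphate pathway, and the ferritin chains FTH1 (-0.36) and FTL (-0.26), at adjusted p from 0.014 to 0.037. FTH1 and FTL have pseudogenes that can share their reads. Of 34 lysosome and autophagy genes, 4 fell and 1 rose, 14.7% called beside 6.31% of all genes. PSAP, the precursor of the saposins, went from 39502 and 38678 normalized counts in the controls to 28920.0, 29193 and 28794 with sh1 (-0.43 ± 0.039, adjusted p = 1.7e-04), and the sh1 libraries were the lower ones throughout. CTSD, cathepsin D (-0.44), LAMP1, a lysosomal membrane protein (-0.37), and WIPI1, an autophagy protein (-0.49), also fell, and GABARAPL1, which decorates autophagosomes, rose (0.71), at adjusted p from 9.4e-04 to 0.023. Of these calls, some were lost without control C for all but PSAP, CTSD and LAMP1 (adjusted p 0.091 to 0.29) and without control A for PGD, WIPI1 and GABARAPL1 (0.057 to 0.097). Among the hairpin libraries, losses came without sh1 A for FTL and GABARAPL1 (adjusted p 0.053 to 0.071), without sh1 B for all but PRDX1, PSAP, CTSD and LAMP1 (0.057 to 0.096), without sh1 C for PGD (0.054) and without sh3 C for FTL (0.053).

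Among genes of early activation, 3 of 27 rose and 2 fell, with a median of 0.15. RGS1, a brake on G protein signalling, measured 5313 and 4804 normalized counts in controls A and C and 8695, 9131 and 10040.0 in sh1 A, B and C (0.88 ± 0.098, adjusted p = 5.7e-04), and JUN 1641 and 1658 in the controls and 2885, 2588 and 2484 with sh1 (0.68 ± 0.093, adjusted p = 0.0022). RGS16, of the same family as RGS1, moved the other way, from 437 and 456 to 200.1, 216 and 224 (-1.06 ± 0.096, adjusted p = 1.7e-04), while sh3 stood at 628, 637 and 683, a difference of -1.60 ± 0.086 (adjusted p = 1.2e-06). JUND rose by 0.25 and CD44, the hyaluronan receptor, fell (-0.47). LTB, a cytokine of the tumour necrosis factor family, was the only call among 22 genes of the NF-kB pathway (-0.51, adjusted p = 0.018). Of 33 interferon-stimulated genes IRF7 rose (0.74) and IFI6 (-0.63), XAF1 (-0.31) and MX2 (-0.23) fell, at limma's adjusted p from 7.7e-04 to 0.0495. That was 12.1% called beside 6.31% of all genes, with a median of -0.032. Of 15 genes that process or sense small and double-stranded RNA, 20.0% were called. DROSHA, which cuts primary miRNAs (0.20), and EIF2AK2, the double-stranded RNA kinase PKR (0.30), rose. TNRC6C, a partner of Argonaute (-0.27), fell, and limma's adjusted p of these genes ran from 0.023 to 0.043. Calls were lost without control C for all but RGS1, RGS16, CD44, JUN and IFI6 (adjusted p 0.074 to 0.31) and without control A for all but RGS1, RGS16, CD44, JUN, LTB and IFI6 (0.058 to 0.22). For the other libraries, calls ended without sh1 A for JUND and DROSHA (adjusted p 0.059 to 0.065), without sh1 B for all but RGS1, RGS16, CD44, JUN, IFI6 and EIF2AK2 (0.055 to 0.14), without sh1 C for JUND, IRF7, XAF1, MX2 and TNRC6C (0.0503 to 0.11) and without sh3 C for JUND, XAF1, MX2 and DROSHA (0.052 to 0.066).

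Of 27 integrins and other adhesion molecules 7 were called lower and 2 higher, beside 3.43% lower and 2.88% higher of all genes, with a median of -0.089. ITGAL and ITGB2, the chains of the leukocyte integrin LFA-1, fell by 1.22 and 0.27 on the log2 scale, and the collagen-binding chains ITGA2 and ITGA1 by 0.55 and 0.56. ICAM3 (-0.34), a ligand of LFA-1, PECAM1 (-0.50) and CD44 fell too, while ITGB3 (0.90) and ITGA4 (0.32) rose; adjusted p ran from 0.0014 to 0.0495. ITGB3 measured 89.6 and 87.1 in the controls and 148, 190.0 and 161 with sh1. Calls ended without control C for all but CD44 (adjusted p 0.051 to 0.23) and without control A for all but ITGB3, ITGB2, ITGA4 and CD44 (0.078 to 0.19). In the SIRT1 arm calls ended without sh1 A for ITGA4, PECAM1 and ITGA1 (adjusted p 0.052 to 0.11), without sh1 B for ITGB2, ITGA4, ITGAL and ITGA1 (0.061 to 0.091) and without sh1 C for PECAM1, ITGAL and ITGA1 (0.066 to 0.082).

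**Figure D4:**
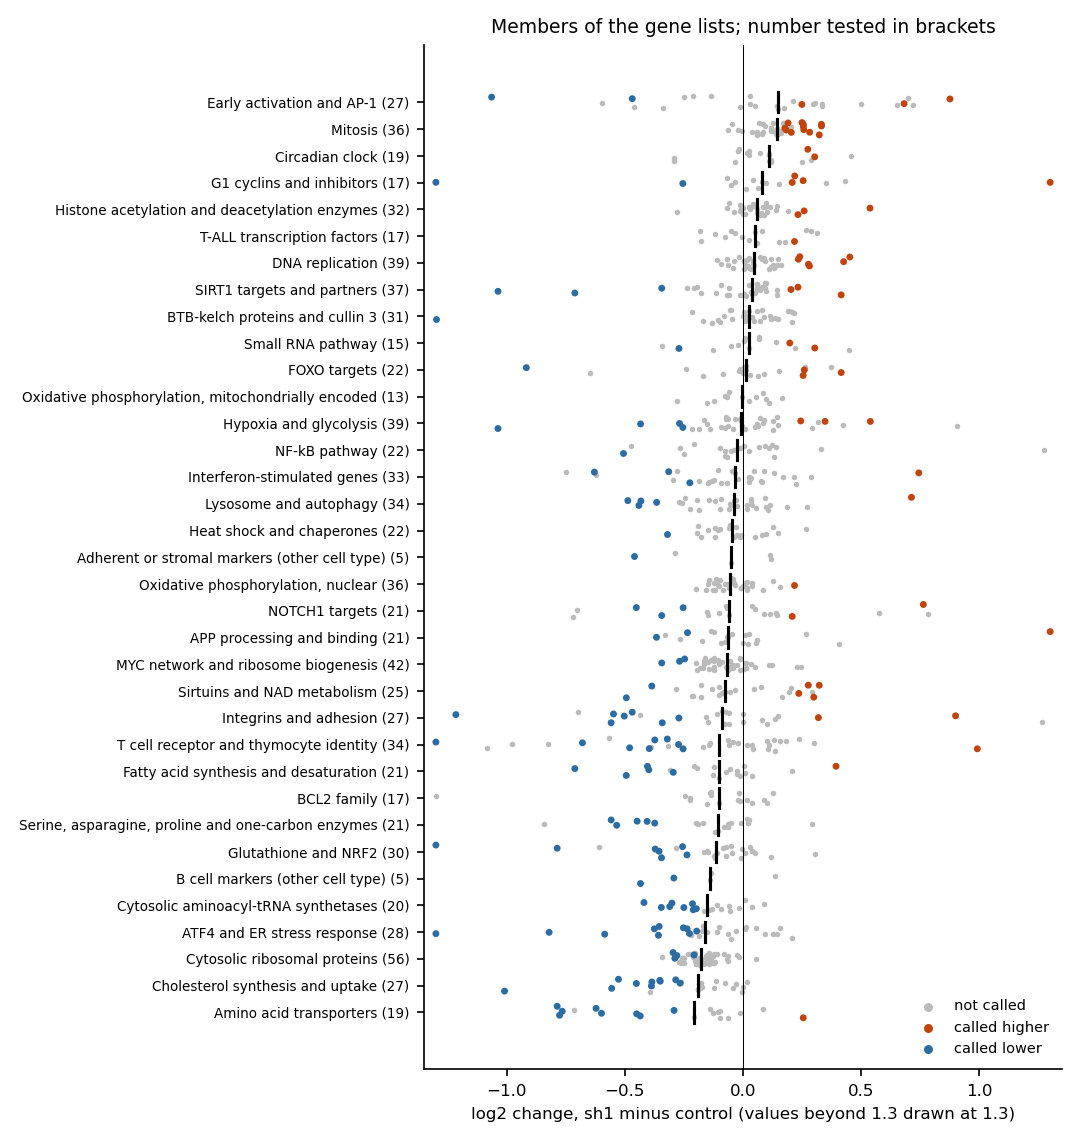
Each row is a gene list with at least 5 genes tested that is reported here, except the markers that define T-ALL cells, which are not drawn. Each point is 1 gene at its log2 change of sh1 minus control, and each black bar the median of the list. Points beyond 1.3 are drawn at 1.3, orange marks called rises, blue called falls and grey the genes not called. Amino acid transporters have the lowest median at -0.21, and mitosis and early activation lie at the upper end at 0.14 and 0.15.

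Of 37 genes whose proteins SIRT1 is known to act on or bind, 3 rose and 3 fell. That was 16.2% called beside 6.31% of all genes, with a median of 0.037. FOXO1, a forkhead factor deacetylated by SIRT1, rose (0.42, adjusted p = 0.040), as did NBN, a DNA repair protein (0.20, adjusted p = 0.044), and KAT7, a histone acetyltransferase (0.23, adjusted p = 0.025). EPAS1, a hypoxia-inducible factor, fell from 198 and 218 normalized counts to 92.2, 116 and 95.6 (-1.04 ± 0.26, adjusted p = 0.040), and MYC and SREBF1 fell as given above. Of 22 FOXO targets 18.2% were called. FOXO1, CCNG2, a cyclin of arrested cells (0.26, limma's adjusted p = 0.036), and CDKN1B rose and FBXO32, a ubiquitin ligase (-0.92, adjusted p = 0.015), fell.

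In NAD metabolism CD38, which degrades NAD, fell from 17584 and 19220.0 normalized counts in the controls to 14607, 14124 and 13489 with sh1 (-0.39 ± 0.058, adjusted p = 0.0040). NNT, the mitochondrial transhydrogenase, rose from 6202 and 6316 to 7696, 7514 and 7529.7 (0.28 ± 0.046, adjusted p = 0.0072), and PARP2, an NAD-consuming repair enzyme (0.32), NADK2, the mitochondrial NAD kinase (0.30), and NAMPT, the rate-limiting enzyme of NAD salvage (0.24), rose too (adjusted p = 0.015, 0.021 and 0.030). CD38 and NNT differed from sh3, by -0.29 ± 0.052 and 0.23 ± 0.041 (adjusted p = 0.0047 and 0.0042). With SIRT1 these were the 6 calls among 25 genes of sirtuins and NAD, 24.0% beside 6.31% of all genes. Of 32 histone acetylation enzymes 3 rose and none fell (limma; 0 at an unadjusted p under 0.05), 9.38% called beside 6.31% of all genes, namely KAT7, JADE3, a subunit of its complex (0.26, adjusted p = 0.038), and HDAC5, a class IIa deacetylase (0.54 ± 0.10, adjusted p = 0.014). HDAC5 stood at 506 and 441 in the controls, 712, 602 and 754 with sh1 and 1144, 1157 and 1077 with sh3. Among clock genes CRY1, a repressor of the clock, rose (0.30, adjusted p = 0.014). Calls of SIRT1, KAT7, FOXO1, EPAS1, NBN, CD38, NNT, PARP2, NADK2, NAMPT, HDAC5, JADE3, CCNG2, FBXO32 and CRY1 were lost without control C for all 15 (adjusted p 0.051 to 0.28) and without control A for all but SIRT1, CD38, HDAC5 and FBXO32 (0.051 to 0.20). Among the hairpin libraries, losses came without sh1 A for FOXO1, EPAS1, NBN, NAMPT and JADE3 (adjusted p 0.059 to 0.084), without sh1 B for KAT7, FOXO1, EPAS1, NBN, NADK2, NAMPT, JADE3 and CCNG2 (0.057 to 0.11), without sh1 C for FOXO1, EPAS1, NBN, NAMPT, JADE3 and CCNG2 (0.053 to 0.087) and without sh3 C for FOXO1 and NBN (0.052). KAT7 overlaps FAM117A.

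Among hypoxia and glycolysis genes 3 of 39 rose and 4 fell, 17.9% called beside 6.31% of all genes. The median was -0.0080, or 0.017 with quantile normalization. VEGFA, the vascular growth factor, measured 6399 and 6276 normalized counts in the controls and 4859, 4777 and 4449 with sh1 (-0.43 ± 0.077, adjusted p = 0.0095). LDHA measured 53697 and 53184 in the controls and 43186, 44146 and 45770.0 with sh1 (-0.27 ± 0.049, adjusted p = 0.011). Both were below the controls in each sh1 library, and both differed from sh3, where the changes were 0.091 and 0.045 (differences -0.53 ± 0.069 and -0.31 ± 0.044, adjusted p = 5.7e-04 and 8.6e-04). SLC16A1, the lactate carrier, fell (-0.25), and SLC2A3, a glucose carrier (0.54), KDM3A, a histone demethylase (0.35), and ENO2, an enolase (0.24), rose, at adjusted p from 0.017 to 0.044. None of 17 genes of the BCL2 family was called (limma; 4 at an unadjusted p under 0.05). BCL2 measured 8263 and 7195 in the controls and 7340.2, 6688 and 6826 with sh1 (-0.15 ± 0.066, adjusted p = 0.21). Calls of VEGFA, ENO2, KDM3A, SLC2A3, SLC16A1, LDHA and EPAS1 were lost without control C for all 7 (adjusted p 0.073 to 0.27) and without control A for all but ENO2 and KDM3A (0.052 to 0.12). For the other libraries, calls ended without sh1 A for SLC2A3 and EPAS1 (adjusted p 0.055 to 0.084), without sh1 B for all but VEGFA and LDHA (0.057 to 0.11) and without sh1 C for SLC16A1 and EPAS1 (0.082 to 0.099).

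Among abundant genes, those with a mean of at least 5000 normalized counts, the 6 smallest p belonged to INTS1, SLC1A5, PSAP, SLC7A5, IGFBP2 and SCD, all of which fell. INTS1, a subunit of the Integrator complex that trims small nuclear RNAs, measured 10983 and 10051 in controls A and C and 5958, 5928 and 5903 in sh1 A, B and C (-0.83 ± 0.056, adjusted p = 4.2e-05). IGFBP2, an insulin-like growth factor binding protein, went from 73518 and 77553 to 54823, 51791 and 53107 (-0.50 ± 0.048, adjusted p = 2.3e-04). The groups were apart in both genes, and the calls of all 6 held with each of the sh1 and control libraries, and sh3 C, left out in turn (sh3 A and B were not left out).

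Markers of other blood cells were read from their own lists. Of 14 myeloid markers 11 had a row and 7 of these had a mean under 10, and the summed level ran from 753 to 778 normalized counts in the controls and from 323 to 425 with sh1. CTSG, cathepsin G, and FCGR2A were the calls of that list. They made up much of its summed level in the controls, so the lower sum with sh1 restates their falls. CTSG stood at 228 and 219 in the controls and 76.7, 72.3 and 73.8 with sh1 (-1.57 ± 0.17, limma's adjusted p = 5.5e-04). FCGR2A stood at 274 and 256 in the controls and 27.3, 25.5 and 21.7 with sh1. CD68, the most abundant marker of the list, was at 227 and 214 in the controls and 193, 222 and 236 with sh1 (-0.027 ± 0.13, adjusted p = 0.93) and did not pass the test. LYZ, a defining myeloid gene, stood at 7.18 and 6.13 in the controls. B cell markers, 7 of 8 with a row, summed to 27200 to 28900 in the controls and 20400 to 22200 with sh1, most of it CD79A, a chain of the B cell receptor (23989 and 25708 in the controls and 17609, 18290.0 and 19281 with sh1, -0.43 ± 0.053, adjusted p = 9.9e-04). PAX5, the defining B cell factor, stood at 1.34 and 1.32 in the controls. EBF1, another B cell factor, measured 902 and 897 in the controls and 958, 1042 and 969 with sh1 (0.14 ± 0.071, adjusted p = 0.29). CD79B, the partner chain of CD79A, measured 436 and 466 in the controls and 389, 443 and 399 with sh1 (-0.14 ± 0.091, adjusted p = 0.41). Neither of these passed the test. BLK, a kinase of B cells and some thymocytes (-0.29, adjusted p = 0.021), fell as well. Natural killer markers, 5 of 9 with a row, summed to 2000 to 2030 and 1600 to 1700 and held CD244 as their call. Adherent or stromal markers, 10 of 11 with a row, summed to 28800 to 29200 and 26600 to 28300. Most of that sum was VIM, at 25606 and 25977 in the controls and 24549, 24333 and 25907 with sh1. It did not pass the test (-0.050, limma's adjusted p = 0.57). PDGFRB, a growth factor receptor of stromal cells, was the call of that list (-0.46, limma's adjusted p = 0.0061). None of the 5 erythroid markers with a row reached a mean of 10, their sums being 29.9 to 41.9 and 26.6 to 29.1, and no marker of any list was at 0 in both controls. The calls of these markers ended without control C for BLK and PDGFRB (adjusted p 0.074 to 0.094) and without control A for BLK (0.12). In bulk samples, fewer cells of a type and less RNA per cell cannot be told apart, and the part of these levels in the falls of CYBB, FCGR2A and CD244 was not tested.

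Of the 876 genes called with sh1, 274 (31.3%) differed between sh1 and sh3 by the test of that difference, beside 11.4% of all genes tested. Of the 88 with a change of at least 1, 37 did (42.0%). The same sh1 libraries picked these genes and entered this test, so shares above 11.4% can follow from that choice alone. The 274 comprised 85 rises and 189 falls. Against control, sh3 itself had 2576 calls (18.6%); both comparisons share the 2 control libraries. Of the 108 named genes, 51 differed between the hairpins, as the plot of both changes shows. Genes that were lower with sh1 and near the control level or above it with sh3 included KLHL4, RGS16, MUC1, TRIB3, VEGFA, CEBPB, SHMT2 and CD79A, whose sh3 changes were -0.13, 0.54, -0.14, 0.021, 0.091, -0.027, -0.046 and -0.059. Genes that were higher with sh1 and not with sh3 included APP, GPSM1, RUNX3, SLC18B1, MYO5C and THEMIS, at -1.16, -1.17, -0.64, -0.39, -0.11 and -0.064 with sh3. In other genes both hairpins moved a gene the same way and by different amounts, with CD244, CTSG and CD1A lower still with sh3 (-2.32, -2.63 and -1.33).

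**Figure D5:**
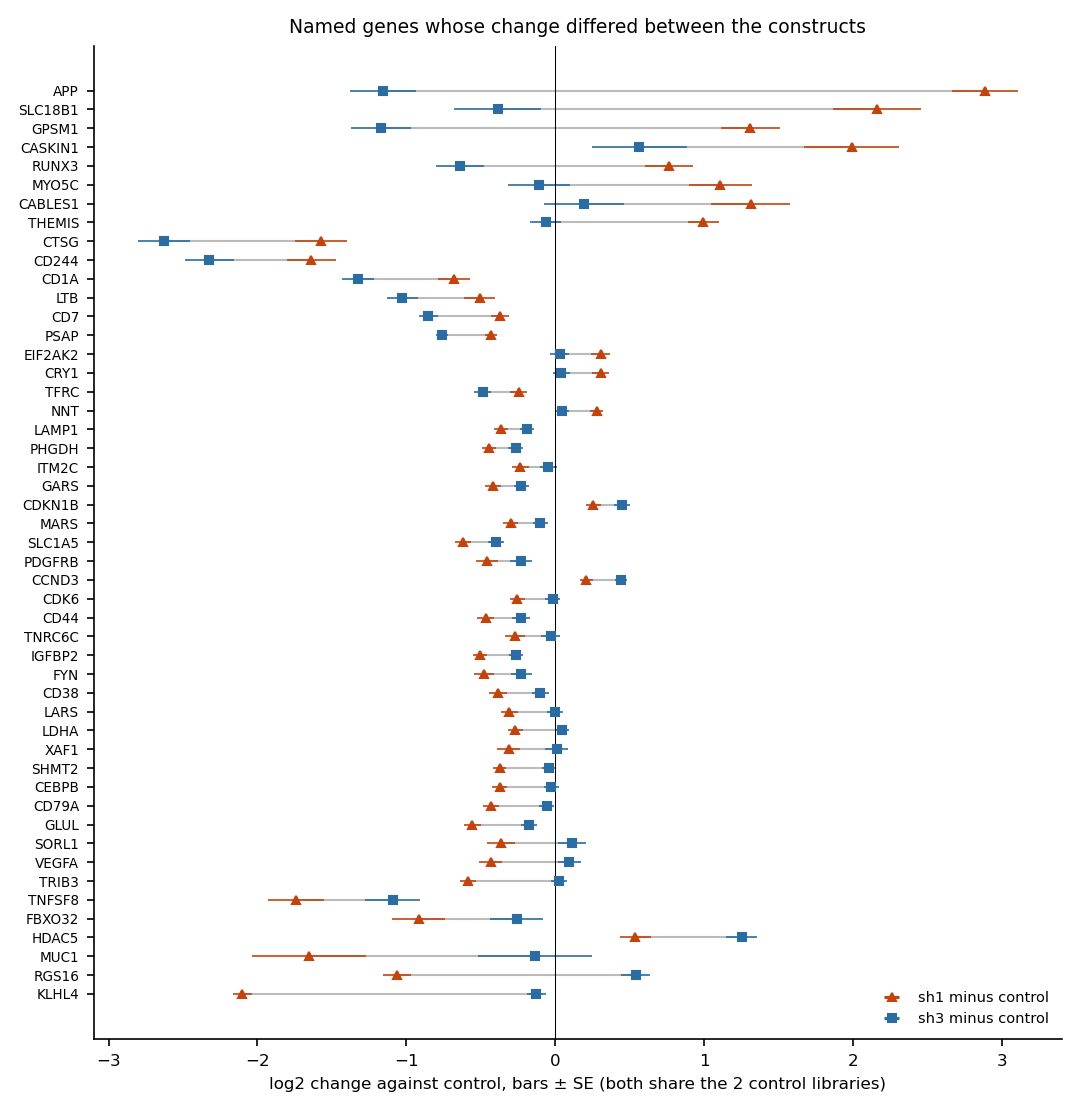
Each row is 1 of 49 named genes whose level differed between sh1 and sh3; triangles are the log2 change of sh1 and squares that of sh3, both against the same 2 controls, with bars of 1 standard error. APP, GPSM1 and RUNX3 lie on opposite sides of 0 for the hairpins, as does RGS16, and KLHL4 lies at -2.10 with sh1 and -0.13 with sh3.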

How the data were processed

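RNA-seq of 8 DND41 cultures was analysed from 1 deposited table of normalized counts, the signal on which every value here rests; the column names match the sample titles, and no column was left unused. Per the submitters' processing notes, the authors used kallisto 0.44.0 and DESeq with the hg38 build; the order of the steps is not stated. The deposited signal values are not whole numbers: of values under 12, 46.4 to 54.2% were whole multiples (within 0.05) of a step of 0.886 to 1.15 per library, too few to recover reads, so no count test was run. Library sums divided by that step give an estimated depth of 28900000 to 37400000 reads.

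Rows that averaged 10 or more across the 8 columns were taken to log2(value + 1), and limma 3.58.1 in R 4.3.3 fitted 3 group means (sh1, sh3, control) with a trend in the variance prior, on 5 residual degrees of freedom. P-values are two-sided and adjusted by Benjamini and Hochberg over 13885 genes; a gene is called at an adjusted p under 0.05. Fold changes of low genes are understated by the added 1. The difference between hairpins is the contrast sh1 minus sh3 in the same fit.

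Of 18133 rows, 18031 matched a GENCODE 29 gene and 15514 of these code for protein; promoters and motifs come from the RefSeq table (GRCh38.p14). The 40 gene lists hold 1004 symbols, 953 of which had a row. Genes are named by rule: SIRT1, the 12 largest called rises and falls with a mean of at least 50, the 6 called genes of smallest p with a mean of at least 5000, up to 3 called genes of smallest p per list, and the most abundant marker of each other cell type. The largest rises and falls were picked among genes whose sh1 values all lay beyond both controls. Other called members of a list are named where a count covers them, and genes such as ASNS, DDIT3, NOTCH1, HES1, SREBF2 and BCL2 were chosen for their role. Counts over lists and named genes include a few genes that are not reported here. The members and lists were chosen with earlier results of these data known. Alternatives were another pseudocount, filter, normalization or variance prior, a fit of sh1 and control alone, a block for the replicate letter and the omission of each sh1 and control library and of sh3 C.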

Additional observations from a re-analysis of the deposited data

Results flagged for a closer look

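For 51 of the 108 named genes the change against control differed between the hairpins, by limma's test of sh1 minus sh3; the values below are that log2 difference, for 49 of them. It was negative, the sh1 level being the lower one, for KLHL4 (-1.97), RGS16 (-1.60), MUC1 (-1.52), HDAC5 (-0.71), FBXO32 (-0.66), TNFSF8 (-0.65), TRIB3 (-0.61), VEGFA (-0.53), SORL1 (-0.48), GLUL (-0.38), CD79A (-0.37), CEBPB (-0.35), SHMT2 (-0.33), XAF1 (-0.32), LDHA (-0.31) and LARS (-0.31). Smaller negative differences were those of CD38 (-0.29), FYN (-0.25), IGFBP2 (-0.24), TNRC6C (-0.24), CD44 (-0.24), CDK6 (-0.24), CCND3 (-0.23), PDGFRB (-0.23), SLC1A5 (-0.22), MARS (-0.20), CDKN1B (-0.19), GARS (-0.19), ITM2C (-0.19), PHGDH (-0.18) and LAMP1 (-0.18). HDAC5, CCND3 and CDKN1B were higher than control with both hairpins and higher still with sh3. It was positive for NNT (0.23), TFRC (0.24), CRY1 (0.26), EIF2AK2 (0.28), PSAP (0.33), CD7 (0.48), LTB (0.52), CD1A (0.65) and CD244 (0.69), and by more than 1 for CTSG (1.06), THEMIS (1.06), CABLES1 (1.12), MYO5C (1.22), RUNX3 (1.40), CASKIN1 (1.42), GPSM1 (2.48), SLC18B1 (2.55) and APP (4.04). APP had the widest gap between the hairpins of the named genes, and KLHL4 the widest in the other direction.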

How the results depend on the processing

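All 876 calls kept their direction under each alternative in which they had a value (847 of them with a minimum mean of 50). In each of them every sh1 value lay beyond both controls. Omitting a library or changing the pseudocount, filter or variance prior could therefore not reverse the direction, nor could the fit without sh3. Only the other normalizations and the replicate block could have done so. Counts between 767 and 952 were called with a pseudocount of 0.5 or 5, with no filter or a minimum mean of 50, and with quantile normalization or median centring. With the sh1 and control libraries alone 462 were called (195 higher, 267 lower), with no trend in the variance prior 236 (72 higher, 164 lower), and with the replicate block 549 (227 higher, 322 lower). Leaving out 1 sh1 or control library, or sh3 C, at a time gave 159 to 782 calls, 55 to 366 of them higher and 104 to 433 lower, and 46 to 90 with a change of at least 1. SIRT1 then ranged from -0.56 to -0.43 on the log2 scale. The number of named genes that differed between hairpins ranged from 39 to 52 over these omissions and was 33 with no trend. Of 108 named genes 105 were called, and 45 were called under every alternative with a value; 48 of the 108 lost the call with no trend, 22 with the sh1 and control libraries alone, 13 with the block and 6 with quantile normalization. Whether the labels' letters pair the samples could not be told from 2 controls, whose deviations from their mean mirror each other. Deviations of same-letter sh1 and control libraries correlated at 0.043 and 0.058 across genes, and the block is given only here. With 2 controls, the spread between cultures of that group is poorly known. Among genes with a mean under 50 the median standard error was 0.396, beside 0.068 at means of 1000 to 5000. Why the counts changed when libraries were left out, or with the other variance prior or the replicate block, was not tested.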

Other observations

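Further called genes, chosen after their values were seen, belong to none of the groups above. CD82, a tetraspanin, fell from 1387 and 1647 normalized counts in controls A and C to 656, 513 and 529 in sh1 A, B and C (-1.42 ± 0.11, limma adjusted p = 9.4e-05), and FKBP5, a co-chaperone of the glucocorticoid receptor, from 223 and 212 to 93.1, 74.3 and 74.7 (-1.43 ± 0.17, adjusted p = 8.3e-04). PTMS, parathymosin, rose from 1816 and 1960.2 to 3019, 3351 and 3200.4 (0.76 ± 0.061, adjusted p = 9.4e-05). The metallothioneins MT2A and MT1X, which bind zinc and copper, fell by 0.79 and 0.46 on the log2 scale (adjusted p = 0.0022 and 0.036); with sh3 their changes were -0.18 and 0.27, and as close relatives they can share reads.

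Some called genes, also chosen after their values were seen, lie beside each other. How often called genes are neighbours was not tested. CD84, CD244 and LY9, receptors of the SLAM family on chromosome 1, fell (-1.60, -1.64 and -1.26, adjusted p = 0.011, 2.7e-04 and 0.0043); with sh3 the changes were -1.12, -2.32 and 0.65. GIMAP8, GIMAP7, GIMAP6 and GIMAP5 on chromosome 7 fell by 0.84, 0.29, 0.26 and 0.45. INHBE and INHBC, subunits of activins, fell as did MARS and SHMT2 in the same stretch of chromosome 12 (-1.45, -1.27, -0.30 and -0.37), with sh3 changes of -0.22, -0.13, -0.10 and -0.046. By chromosome, 5 of 16 genes of chromosome Y were called lower (31.2%, beside 6.31% of all genes), with a median log2 change of -0.41 with sh1 and -0.043 with sh3.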
